A study of Mus musculus with 18 samples.

Results

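A set of 10 genes of major histocompatibility complex (MHC) class I antigen presentation were described across a mouse CD8+ T cell experiment: H2-K1, H2-D1, B2m, Tap1, Tap2, Tapbp, Psmb8, Psmb9, Psmb10 and Nlrc5. They were chosen by name from the pathway, with earlier results of these data known. All 10 were found among the 24537 genes of the count table. Naive CD8+ T cells had received CRISPR ribonucleoprotein with a scrambled guide RNA (labelled WT) or with a guide kit against Nur77 (labelled KO), the nuclear receptor encoded by Nr4a1, and were then activated through CD3 and CD28. They were kept overnight without lithocholic acid (LCA), a bile acid that intestinal microbes produce, or with 10 or 50 µM of it. Each of the 6 groups, scrambled or Nur77 guide at 0, 10 or 50 µM, held 3 libraries. Cells of every group, controls included, had thus been given ribonucleoprotein and activated. The mouse strain, age and sex, the vehicle of the untreated cells and whether replicates came from separate animals or cultures could not be read from the labels, so each p-value reflects variation among libraries that may be technical replicates. Guide-edited cells are a mixed population, and the counts do not show which cells carry an edit. Nr4a1 itself averaged 9.60 ± 3.24, 11.1 ± 4.73 and 13.6 ± 5.18 CPM (library-size-normalised counts, SD, n = 3) in scrambled-guide cells and 10.6 ± 2.48, 9.91 ± 0.823 and 10.1 ± 4.87 CPM in Nur77-guide cells at 0, 10 and 50 µM, and no comparison of it passed the test.

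MHC class I molecules show fragments of a cell's own proteins to CD8+ T cells, and T cells themselves carry them at high density. The proteasome cuts proteins into peptides, and in the immunoproteasome the catalytic subunits encoded by Psmb8, Psmb9 and Psmb10 take the places of Psmb5, Psmb6 and Psmb7. Tap1 and Tap2 encode the transporter that carries peptides into the endoplasmic reticulum, where tapasin (Tapbp) loads them onto a heavy chain (H2-K1 or H2-D1) bound to beta-2 microglobulin (B2m). Nlrc5 encodes the transactivator of class I genes, which acts through a conserved promoter module called the SXY box, and interferon gamma raises the whole set, in part through IRF1.

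Promoter sequences are shown because the class I genes share short elements. In the RefSeq promoter table (GRCm38.p6), 8 of the 10 members had an entry, and 250 bases before each gene's start were searched on both strands for TGACG (the core of the X2 box), ATTGG (the core of the Y box), the class I enhancer A palindrome (GGGGA, a central T, TCCCC), a long interferon response element (GAAA, any 2 bases, GAAA) and the shorter GAANNGAAA, a separate pattern with 1 base less. Capitals below mark every match. The 200 bases before the start of H2-K1 (chr17:34000348-34000547, minus strand) and of B2m (chr2:122147487-122147686, plus strand) read:
H2-K1: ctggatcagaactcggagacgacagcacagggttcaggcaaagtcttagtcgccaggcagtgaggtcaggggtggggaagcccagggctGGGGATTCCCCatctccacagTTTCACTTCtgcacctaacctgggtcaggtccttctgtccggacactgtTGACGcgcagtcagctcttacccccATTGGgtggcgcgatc
B2m: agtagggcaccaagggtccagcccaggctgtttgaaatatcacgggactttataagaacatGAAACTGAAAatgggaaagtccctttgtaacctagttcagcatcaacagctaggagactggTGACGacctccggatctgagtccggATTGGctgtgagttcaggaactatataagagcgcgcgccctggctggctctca
In both, and in H2-D1, TGACG was followed after 20 bases by ATTGG on the same strand. The 30-base module of each gene, at chr17:34000359-34000388 (minus strand), chr17:35262993-35263022 (plus strand) and chr2:122147609-122147638 (plus strand), with both cores in capitals, reads:
H2-K1: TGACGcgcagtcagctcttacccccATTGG
H2-D1: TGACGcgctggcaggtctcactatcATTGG
B2m: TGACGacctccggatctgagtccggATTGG
H2-K1 and H2-D1 carried the same base at 23 of the 30 positions, H2-K1 and B2m at 13, and H2-D1 and B2m at 12. The module began 41 bases before the start of H2-K1, 101 before that of H2-D1 and 78 before that of B2m. This spacing occurred in 25 of 27025 promoters (0.0925%), whereas TGACG alone occurred in 17.9% and ATTGG alone in 34.5%. The enhancer A palindrome stood before H2-K1 and H2-D1 and in 0.0222% of promoters, GAANNGAAA before the same pair and in 6.34%, and the long interferon element before B2m and in 3.04%. The windows of H2-K1 and H2-D1, including 50 bases after the start, were identical at 90.4% of 228 aligned positions. Tap1 and Psmb9 are transcribed away from each other, with 225 bases between their RefSeq starts, and share a TGACG that lies 86 bases before Tap1. A match of these letters is a description and not a measured binding site.

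Libraries held 4113713 to 5945518 counts and 14936 to 17518 genes with a count, and 11651 genes, all 10 members among them, had enough counts to be tested. The 7 CD8 T cell markers listed summed to 4692 to 4774 CPM in untreated and 3920 to 4492 CPM in 50 µM scrambled-guide libraries, and to 4550 to 4599 CPM and 3568 to 4454 CPM in Nur77-guide libraries. The sum was thus lower at 50 µM without overlap with both guides, and all 7 differences were negative with each. Among 4 CD4 T cell markers, Cd4 had 0 to 6 counts, Foxp3 41 to 88 and Zbtb7b 1 to 84. These 4 summed to 12.58 to 17.97 CPM in untreated and 20.69 to 25.74 CPM in 50 µM scrambled-guide libraries. With the Nur77 guide they summed to 14.33 to 18.59 CPM and 18.62 to 36.23 CPM. The CD4 marker sum was thus higher at 50 µM without overlap with both guides. Red cell and platelet markers summed to 30.97 to 55.3 CPM in untreated scrambled-guide and 0.377 to 6.09 CPM in untreated Nur77-guide libraries. Myeloid markers summed to 44.7 to 80.7 CPM in scrambled-guide and 14.9 to 28.8 CPM in Nur77-guide libraries, B cell markers to 4.75 to 12.4 CPM and MHC class II genes to 143 to 231 CPM. The part of these markers in the class I values was not tested. In bulk RNA, fewer cells of a type and less RNA per cell cannot be told apart. A pair of library properties varied among libraries. Summed counts of 1470 chemosensory receptor genes served as a measure of background reads. They were 121, 139 and 223 CPM in scrambled-guide cells at 50 µM against 79.5, 108 and 50.4 CPM in their untreated controls, without overlap. In Nur77-guide cells they were 164, 47.2 and 93.4 CPM at 50 µM against 96.8, 94.0 and 113 CPM without LCA, with overlap. The correlation over genes between transcript length and a library's deviation from the gene's mean, called the length trend here, ran from -0.256 to 0.291 over libraries. The length trend stood at -0.0536, 0.215 and 0.274 in scrambled-guide cells at 50 µM, against -0.176, 0.106 and -0.141 in their controls, with overlap. In Nur77-guide cells it stood at 0.111, -0.256 and -0.0533 at 50 µM, against -0.0165, -0.0314 and 0.105 without LCA, also with overlap. Scrambled-guide replicate 3 at 50 µM had the highest background of all libraries, and Nur77-guide replicate 1 at 50 µM the next.

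The set was expressed at high level throughout, at 1.22 to 1.48% of all counts. Per kilobase of the longest annotated transcript (GENCODE M21), the median level over the 18 libraries was highest for B2m, at 3030 CPM per kilobase, followed by the heavy chains H2-D1 at 1659 and H2-K1 at 1644, whose ranges overlapped. Psmb8 stood at 762, well above the other immunoproteasome subunits Psmb10 (240) and Psmb9 (154). The order of Psmb10 and Psmb9 rests on their longest transcripts, of 1311 and 2884 bases. Before division by length the median was 315 CPM for Psmb10 and 446 CPM for Psmb9. Which transcripts the cells used was not tested. The loading chaperone Tapbp stood at 304, and the transporter chains Tap1 and Tap2 stood close together at 202 and 181. Nlrc5 was lowest at 40.1. The ranges of Tapbp and Psmb10, of Tap1 and Tap2, and of Tap2 and Psmb9 overlapped, so those neighbours were not separated, and measuring length over all annotated exons exchanged only Tap1 and Tap2. No member varied widely: the highest library exceeded the lowest by 1.15 times for Tap1 and by up to 1.48 times for Psmb9. For 7 of the 10 members the lowest library was scrambled-guide replicate 3 at 50 µM.

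**Figure D1:**
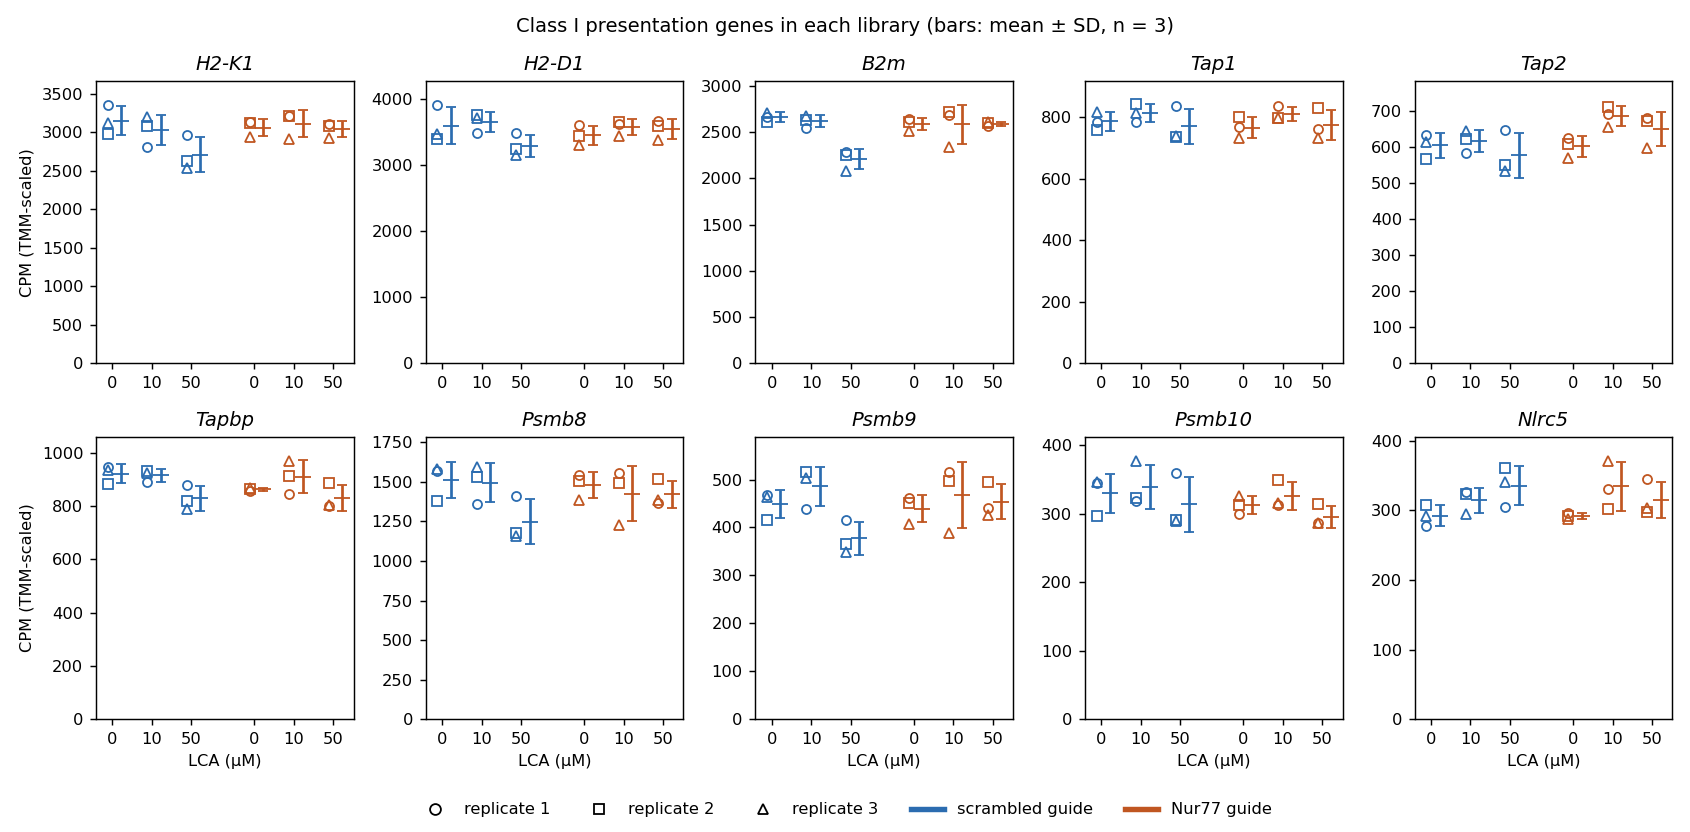
Level of each of the 10 members in each of the 18 libraries, in CPM on TMM-scaled library sizes, against LCA dose in µM, with the axis starting at 0. Symbols are replicates and bars the mean ± SD (n = 3); B2m in scrambled-guide cells at 50 µM lies between 2080 and 2284 CPM, below every untreated scrambled-guide library.

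In scrambled-guide cells, the shared light chain and a heavy chain of the class I molecule were lower with 50 µM LCA. B2m stood at 2664, 2607 and 2710 CPM without LCA and at 2284, 2250 and 2080 CPM with 50 µM, so that no treated library reached an untreated one. B2m fell by 17.1%, a log2 fold change of -0.27 ± 0.06 (standard error, edgeR quasi-likelihood adjusted p = 0.00184). H2-K1, the K heavy chain, stood at 3350, 2973 and 3124 CPM without LCA and at 2961, 2628 and 2539 CPM with it. The groups were separated by a narrow margin, replicate 1 with LCA lying just under replicate 2 without, and H2-K1 fell by 0.22 ± 0.06 on the log2 scale (edgeR adjusted p = 0.0253). H2-D1, the D heavy chain, was highest in untreated replicate 1 at 3922 CPM and lowest in treated replicate 3 at 3164 CPM, but the groups overlapped. Its difference of -0.13 ± 0.06 did not pass the test (edgeR adjusted p = 0.193). The call for B2m was kept under all 14 other settings tried, with differences from -0.30 to -0.21 and adjusted p from 2.24e-05 to 0.0399. That for H2-K1 was lost when scrambled-guide replicate 1 (-0.18) or 3 (-0.23) without LCA, or replicate 2 (-0.20) or 3 (-0.18) at 50 µM, was left out, and with background (-0.18) or the length trend (-0.13) as a covariate. It was also lost without scrambled-guide replicate 3 and Nur77-guide replicate 1 at 50 µM together (-0.17, edgeR adjusted p = 0.0902).

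The heavy chain values carry a limit of counting. The table also has a row for H2-L, a gene absent from this annotation that is close to H2-D1 in sequence, and its counts were 0.658 to 0.686 of those of H2-D1 in every library. Of the 50-base stretches of the longest transcript, 14.3% in H2-D1 and 8.11% in H2-K1 occur in other genes, mostly other class I heavy chains, against 0 in B2m, Psmb8, Psmb9, Psmb10 and Nlrc5. The sources used here do not give how reads that fit several genes were counted.

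In Nur77-guide cells the same molecules did not separate with 50 µM LCA. B2m stood at 2641, 2612 and 2513 CPM without LCA and at 2564, 2599 and 2604 CPM with it, a difference of 0.00 ± 0.06 (95% interval -0.12 to 0.12). H2-K1 stood at 3128, 3115 and 2933 CPM without and 3112, 3085 and 2921 CPM with LCA, a difference of -0.01 ± 0.06. The H2-D1 difference was 0.04 ± 0.06. At 50 µM the guides could be compared directly: B2m was higher in every Nur77-guide library than in any scrambled-guide library, by 0.23 ± 0.06 (edgeR adjusted p = 0.0228), and H2-K1 was higher by 0.17 ± 0.06, which did not pass (adjusted p = 0.2). The call for B2m was lost in a fit of these groups alone (adjusted p = 0.171), with background as a covariate (0.0600), without scrambled-guide replicate 2 (0.0626) or 3 (0.182), and without Nur77-guide replicate 3 (0.0722). It was also lost without scrambled-guide replicate 3 and Nur77-guide replicate 1 together (0.106).

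No peptide transport or loading gene of the set was called at 50 µM with either guide. Tapbp, which bridges the transporter and the empty class I molecule, stood at 947, 882 and 935 CPM in untreated scrambled-guide cells and at 880, 818 and 787 CPM at 50 µM. Every treated library was below every untreated one, though the margin was small and the difference of -0.15 ± 0.06 did not pass (edgeR adjusted p = 0.134). Tap1 ran from 733 to 844 CPM over all 18 libraries, the smallest ratio of highest to lowest library in the set, and differed by -0.03 ± 0.06 at 50 µM with the scrambled guide and by 0.02 ± 0.06 with the Nur77 guide. Tap2 differed by -0.07 ± 0.07 and 0.11 ± 0.07. Averaged over the doses, Tap2 was higher with the Nur77 guide by 0.11 ± 0.04 (edgeR adjusted p = 0.161), a value that passed with the length trend as a covariate (adjusted p = 0.0401) and without scrambled-guide replicate 1 at 50 µM (0.0381).

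Among the immunoproteasome subunits, Psmb8 was lower in scrambled-guide cells at 50 µM, Psmb9 leaned the same way and Psmb10 did not separate. Psmb8, the chymotrypsin-like subunit that replaces Psmb5, stood at 1572, 1378 and 1583 CPM without LCA and at 1410, 1177 and 1158 CPM with it. Replicate 2 without LCA lay below replicate 1 with it, so the groups overlapped, and Psmb8 fell by 0.28 ± 0.08 on the log2 scale (edgeR adjusted p = 0.0366). Psmb9, which replaces Psmb6, stood at 468, 416 and 463 CPM without LCA and at 416, 366 and 349 CPM with it. Its difference of -0.25 ± 0.09 did not pass (edgeR adjusted p = 0.0815), but did in the compared groups alone (0.0228), with no filter on low counts (0.0110) and without scrambled-guide replicate 1 at 50 µM (0.0306). Psmb10, which replaces Psmb7, differed by -0.07 ± 0.08. In Nur77-guide cells the differences at 50 µM were -0.06 ± 0.08 for Psmb8, 0.05 ± 0.09 for Psmb9 and -0.08 ± 0.08 for Psmb10. At 50 µM, Psmb9 was higher in every Nur77-guide library than in any scrambled-guide library (0.27 ± 0.09, edgeR adjusted p = 0.138). The call for Psmb8 was lost under the same single left-out libraries as that for H2-K1, with values of -0.26, -0.25, -0.24 and -0.23 in the order given above, and with background (-0.15) or the length trend (-0.12) as a covariate. It was also lost without the same 2 libraries together (-0.22, edgeR adjusted p = 0.152).

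None of the 3 constitutive counterparts was called. Psmb5, Psmb6 and Psmb7 differed at 50 µM by 0.08 ± 0.10, -0.08 ± 0.09 and 0.03 ± 0.08 with the scrambled guide and by 0.19 ± 0.10, 0.08 ± 0.09 and -0.06 ± 0.08 with the Nur77 guide. Per kilobase, Psmb8 exceeded Psmb5 by 5.45 ± 0.357 times in untreated scrambled-guide cells and by 4.24 ± 0.51 times at 50 µM (SD, n = 3), and no library of the former reached the latter's range. With the Nur77 guide the ratio was 5.35 ± 0.428 and 4.502 ± 0.217, again without overlap. Psmb9 stood at 0.432 ± 0.00631 of Psmb6 without LCA and 0.383 ± 0.0174 at 50 µM with the scrambled guide, without overlap, and at 0.425 ± 0.0262 and 0.417 ± 0.0340 with the Nur77 guide, with overlap. The ratio of Psmb10 to Psmb7 overlapped between doses with either guide. These ratios rest on the longest annotated transcript of each gene and were not tested. The share of other gene pairs whose ratios do not overlap was not counted. Single genes did not overlap in 13.7% of cases (lower) and 13.1% (higher) at 50 µM with the scrambled guide. With the Nur77 guide neither Psmb8 nor Psmb5 was called.

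Nlrc5, the transactivator, was the only member whose difference at 50 µM was positive in scrambled-guide cells. It stood at 277, 307 and 292 CPM without LCA and at 304, 360 and 341 CPM with it, where treated replicate 1 lay below untreated replicate 2. In Nur77-guide cells it stood at 297, 291 and 287 CPM without LCA, at 331, 301 and 371 CPM at 10 µM and at 345, 298 and 303 CPM at 50 µM, each treated library above each untreated one. The differences at 50 µM were 0.20 ± 0.08 (edgeR adjusted p = 0.118) and 0.11 ± 0.08 (0.487), and averaged over guides 0.15 ± 0.06 (0.0538). None passed. The averaged difference passed with the length trend as a covariate (0.12, adjusted p = 0.0464), without scrambled-guide replicate 1 (0.0214) and without Nur77-guide replicate 2 (0.0445) at 50 µM.

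Counted over the set, 3 of 10 members were called lower and 0 higher with 50 µM LCA in scrambled-guide cells, where 8.58% of all tested genes were called, 4.93% lower and 3.66% higher. The median difference of the members was -0.14 against 0.01 over all genes, and 9 of 10 were negative. An unadjusted p under 0.05 was found for 7 of 10 members and 2585 of all genes. DESeq2 also called 3 lower. Members whose libraries did not overlap numbered 3, all lower (B2m, H2-K1 and Tapbp), and 13.7% of all genes did so in that direction, with 13.1% in the other. The count fell to 1 with background or the length trend as a covariate, without scrambled-guide replicate 3 and Nur77-guide replicate 1 at 50 µM together, and without each of the 4 libraries named singly for H2-K1. It was 5 without scrambled-guide replicate 1 at 50 µM, 4 lower and Nlrc5 higher. With the Nur77 guide, 0 of 10 were called by edgeR or DESeq2 where 6.35% of all genes were, 0 members and 2202 of all genes had an unadjusted p under 0.05, and the median was 0.01. Nlrc5 was the 1 member without overlap, higher, as were 11.5% of all genes. Averaged over guides, 1 member, B2m (-0.14 ± 0.04, edgeR adjusted p = 0.0177), was called lower where 16.5% of all genes were called, 8.66% lower. Psmb8 (-0.17 ± 0.06, adjusted p = 0.0527) and H2-K1 (-0.11 ± 0.04, 0.0787) were not. That count ranged from 0, without scrambled-guide replicate 3 at 50 µM, to 4, and this average uses the same libraries as the comparisons within each guide.

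The difference between the guides in the response to 50 µM was tested directly and passed for no gene. It was 0.27 ± 0.08 for B2m (edgeR adjusted p = 0.682), 0.30 ± 0.13 for Psmb9 (0.793), 0.22 ± 0.12 for Psmb8 (0.816) and 0.21 ± 0.09 for H2-K1 (0.793), Nur77 minus scrambled guide. Of the members 0 were called, 3 had an unadjusted p under 0.05, and 0% of all genes were called, with 729 genes under an unadjusted p of 0.05. DESeq2 called 1 gene, no member. The response to 50 µM LCA was therefore not shown to differ between the guides for any member. Its 95% interval for B2m ran from 0.11 to 0.44.

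**Figure D2:**
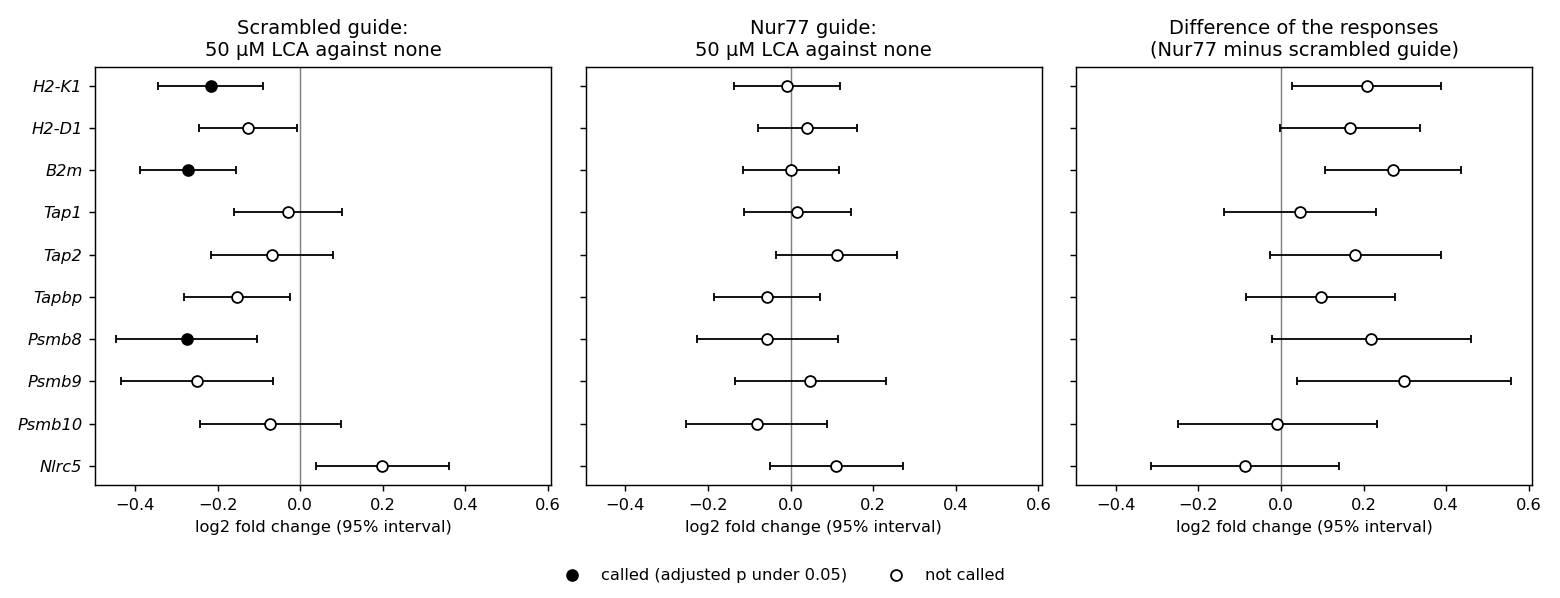
Log2 fold change of each member at 50 µM LCA against none with the scrambled guide (left) and the Nur77 guide (middle), and the difference of these responses (right), with 95% intervals; filled points were called. B2m, H2-K1 and Psmb8 are filled in the left panel, at -0.27, -0.22 and -0.28, and no point is filled in the other panels.

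At 10 µM no member was called with either guide. With the scrambled guide, where 0.386% of genes were called, differences ran from -0.06 for H2-K1 to 0.11 for Psmb9, and 0 members had an unadjusted p under 0.05. With the Nur77 guide, where 0.326% were called, they ran from -0.05 for Psmb8 to 0.20 for Nlrc5, and 2 members (Nlrc5 and Tap2, at 0.20 ± 0.08 and 0.19 ± 0.07) had an unadjusted p under 0.05. Averaged over guides, 0 members were called against 1.82% of genes. Nlrc5, at 0.15 ± 0.06 in that average (edgeR adjusted p = 0.212), passed with the length trend as a covariate (0.16, adjusted p = 0.0310). DESeq2 called 0 members in each of these comparisons. Nlrc5 and Tap2 did not overlap with the Nur77 guide, both higher, as 7.75% of all genes did. The difference between the guides in the response to 10 µM passed for 0% of genes by edgeR or DESeq2, with 382 genes at an unadjusted p under 0.05.

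Between guides, 0 members were called without LCA (0.627% of genes) or at 10 µM (0.661%), and 1, B2m, higher at 50 µM (1.94%, with 1.42% higher), by edgeR and by DESeq2. Without LCA all 10 differences were negative, from -0.09 for Tapbp to -0.00 for Nlrc5, and 0 had an unadjusted p under 0.05. Tapbp alone did not overlap there, lower, as 7.51% of genes did. At 10 µM Tap2 (0.15 ± 0.07) was the 1 member under an unadjusted p of 0.05 and did not overlap, higher, as 7.59% of genes did. At 50 µM 5 members and 1571 of all genes were under it, and B2m and Psmb9 did not overlap, higher, as 8.37% of genes did. Averaged over doses, 0 were called against 5.15% of genes, and the median over the members was 0.02.

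Within groups the members varied together, with Nlrc5 moving against the rest. After group means were removed, 35 of the 36 pairs without Nlrc5 correlated positively over the 18 libraries and 27 exceeded 0.5. Psmb8 and Psmb9 were closest (Pearson r = 0.97, Spearman rho = 0.94), followed by H2-K1 and Tap2 (0.93, 0.85) and by H2-K1 and H2-D1 (0.90, 0.87), a pair that can share reads. Psmb9 and Tap1, whose 5′ ends overlap in GENCODE M21 but not in RefSeq, correlated at 0.76. Nlrc5 correlated negatively with each of the other 9 members, most with Psmb10 (-0.78, -0.77) and Psmb8 (-0.75, -0.75). Tapbp stood apart from B2m (-0.07). All are descriptions of libraries that share their depth and composition.

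**Figure D3:**
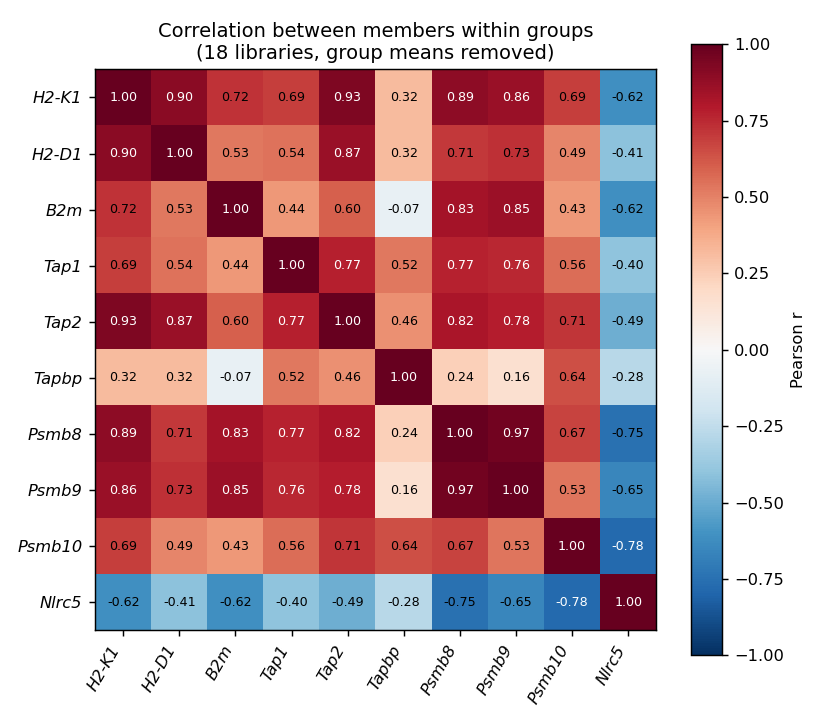
Pearson correlation between members over 18 libraries after removal of each group's mean, from -1 (blue) to 1 (red). The block of H2-K1, H2-D1, B2m, Tap1, Tap2 and the 3 Psmb genes is red, and the Nlrc5 row is blue throughout.

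Several members also varied with the length trend. Over 18 libraries, Pearson's r between level and length trend was -0.91 for Psmb8 (Spearman rho = -0.86), -0.89 for Psmb9 (-0.86), -0.77 for H2-K1 (-0.69), -0.73 for B2m (-0.68) and 0.68 for Nlrc5 (0.57). Without the 2 libraries farthest from the median trend, r was -0.86, -0.86, -0.74, -0.59 and 0.51, and in the 12 libraries at 0 and 10 µM it was -0.95, -0.92, -0.82, -0.90 and 0.53. The longest transcript measures 860 bases in B2m, 1874 in H2-K1 and 1907 in Psmb8, which fall in the shortest of 4 equal classes of tested genes (up to 2193 bases), and 7578 bases in Nlrc5, which falls in the longest (from 4775). Psmb10 (1311 bases, r = -0.56) and H2-D1 (2102, -0.72) also fall in the shortest. Psmb9 (2884 bases) and Tapbp (2898, r = -0.38) fall in the second class (2194 to 3372). Tap2 (3442, -0.57) and Tap1 (3911, -0.67) fall in the third (3373 to 4774). At 50 µM, the shortest class had a median difference of -0.06 and the longest of 0.08 with the scrambled guide, against 0.03 and -0.03 with the Nur77 guide. With the length trend as a covariate the B2m difference in scrambled-guide cells was -0.21 ± 0.05 (edgeR adjusted p = 0.00248) and with background it was -0.24 ± 0.07 (0.0399), both called. For H2-K1 and Psmb8 the covariates ended the call, and the part of either property in those differences was not tested.

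**Figure D4:**
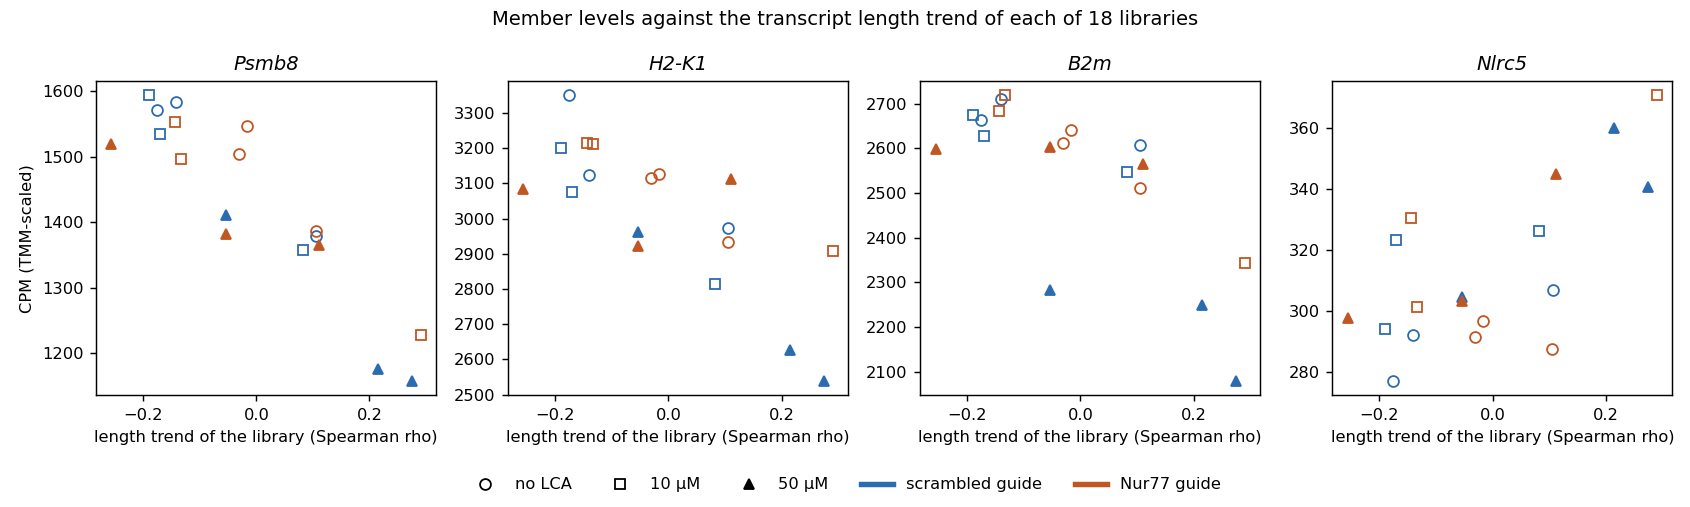
Level of Psmb8, H2-K1, B2m and Nlrc5 in CPM against each library's length trend (Spearman rho over genes between transcript length and deviation from the gene's mean), 1 point per library; the CPM axes do not start at 0. Psmb8 falls along the trend (r = -0.91) and Nlrc5 rises (r = 0.68), while the 3 scrambled-guide libraries at 50 µM lie below the others in B2m.

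Some relatives of the class I heavy chains were called lower at 50 µM with each guide. Of 17 listed nonclassical and other heavy chain genes and relatives, 13 were tested: 6 were called lower with the scrambled guide and 4 with the Nur77 guide, 0 higher in either, against 8.58% and 6.35% of all genes called either way, with medians of -0.43 and -0.38. Of the 13 differences 12 and 11 were negative. The called genes H2-Q10 and H2-K2 averaged 11.5 and 18.2 CPM, against 489 CPM for H2-Q7. Reads that fit several of these relatives may link their counts, so the calls may not be separate, which was not tested. H2-T23, which encodes Qa-1 and presents leader peptides of other class I molecules to inhibitory receptors, stood at 561, 500 and 539 CPM without LCA and at 427, 376 and 353 CPM with it in scrambled-guide cells. In Nur77-guide cells it stood at 539, 522 and 479 CPM without and 390, 422 and 390 CPM with LCA, and no treated library reached an untreated one with either guide. H2-T23 fell by 0.47 ± 0.08 (edgeR adjusted p = 0.000230) and by 0.36 ± 0.08 (0.00582). H2-Q7, of the Qa-2 family, fell by 0.43 ± 0.09 (0.00176) and 0.46 ± 0.09 (0.00131), and the table's row for H2-Q9 differed from it by at most 2 counts in any library, so these are not separate genes in the counts. H2-T22 fell by 0.56 ± 0.09 with the scrambled guide (4.69e-05), from 173 ± 8.64 to 118 ± 9.08 CPM, and the row for H2-T9 held 0.959 to 0.982 of its counts. H2-T22 stood at 161 ± 5.70 and 140 ± 5.10 CPM with the Nur77 guide, where the difference did not pass. The test of the difference between guides did not pass for H2-T22 (0.36 ± 0.12, adjusted p = 0.728). The calls for H2-T23 and H2-T22 were kept under every setting tried, that for H2-Q7 in scrambled-guide cells was lost with background as a covariate (-0.24, adjusted p = 0.161), and the scrambled-guide count fell to 2 with that covariate. The count was 3 without untreated replicate 1 or treated replicate 2 or 3 of the scrambled guide.

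H2-Q10, which encodes a secreted class I molecule best known from liver, differed between guides at every dose. It stood at 10.7, 6.59 and 8.29 CPM in untreated scrambled-guide cells and at 23.5, 25.6 and 22.3 CPM in untreated Nur77-guide cells. The Nur77-guide cells were higher by 1.48 ± 0.28 without LCA (edgeR adjusted p = 0.00397), by 1.96 ± 0.31 at 10 µM (0.000281) and by 1.48 ± 0.34 at 50 µM (0.0126). Averaged over doses, H2-Q6 was also higher with the Nur77 guide, by 0.29 ± 0.05 (edgeR adjusted p = 0.000248). The row for H2-Q8 held 1.01 to 1.04 of the H2-Q6 counts. With 50 µM LCA, H2-Q10 fell by 1.18 ± 0.34 with the scrambled guide (0.0273) and by 1.18 ± 0.27 with the Nur77 guide (0.00610). The call with the Nur77 guide was lost in the compared groups alone (-1.17, adjusted p = 0.0633), as was that between guides at 50 µM (1.47, 0.149), and the call with the scrambled guide was lost with the length trend as a covariate (-1.08, 0.0666). The call at 50 µM between guides and that with the scrambled guide were each lost with background as a covariate (0.93 and -0.55) and when any of 4 libraries was left out, with adjusted p up to 0.133, namely scrambled-guide replicates 2 and 3 at 50 µM for both, with Nur77-guide replicates 2 and 3 at 50 µM for the former and untreated scrambled-guide replicates 1 and 3 for the latter.

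Of 13 genes of loading and peptide trimming, edgeR called 3 lower with the scrambled guide and 2 with the Nur77 guide, and 0 higher, against 8.58% and 6.35% of all genes either way, with medians of -0.14 in both. Tapbpl, which encodes the peptide editor TAPBPR, fell by 0.39 ± 0.09, Erap1, the trimming aminopeptidase of the endoplasmic reticulum, by 0.31 ± 0.09, and Lnpep, an endosomal aminopeptidase, by 0.52 ± 0.13 with the scrambled guide. With the Nur77 guide Lnpep fell by 0.57 ± 0.13 and the cytosolic aminopeptidase Npepps by 0.55 ± 0.13. Leaving out scrambled-guide replicate 3 at 50 µM left 0 of these called with that guide (-0.30, -0.31 and -0.40), and Tapbpl (-0.29) and Lnpep (-0.43) also lost their calls with background as a covariate. DESeq2 called 5 lower and 0 higher with the scrambled guide and 4 lower and 1 higher with the Nur77 guide. Erap1 also lost its call without untreated replicate 2 (-0.23) or 3 (-0.31) or treated replicate 2 (-0.32), and Lnpep without untreated replicate 2 (-0.38). Among the other proteasome genes, 2 of 11 further core subunits were called lower with the scrambled guide (Psma1, -0.32 ± 0.08, and Psma2, -0.27 ± 0.08) and 0 with the Nur77 guide, with medians of -0.18 and -0.06. With the scrambled guide all 11 differences were negative and 5 had an unadjusted p under 0.05. Psma2's call was lost without untreated replicate 1 or 3 or treated replicate 2 or 3, and both were lost with background as a covariate. For the next lists the shares of all genes called either way were again 8.58% and 6.35%. Of 10 activator and assembly genes 0 and 1 were called, the latter Psmf1, a proteasome inhibitor (0.43 ± 0.11), whose call was lost without Nur77-guide replicate 3 without LCA (0.34) or replicate 2 with it (0.36). Of 21 genes of the 19S regulatory particle 1 and 2 were called: Psmd8 lower with the scrambled guide (-0.38 ± 0.09) and with the Nur77 guide (-0.37 ± 0.09), and the assembly chaperone Psmd5 higher with the Nur77 guide (0.28 ± 0.08). The call for Psmd8 was lost without scrambled-guide replicate 2 (-0.31) and without Nur77-guide replicate 1 (-0.25) at 50 µM, respectively, and that for Psmd5 without untreated replicate 1 (0.25) or 3 (0.27) or treated replicate 1 (0.20) or 3 (0.27).

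Regulators of class I transcription and the interferon gamma pathway were read from the same fit. Irf1, the transcription factor that interferon gamma induces and that binds class I promoters, stood at 547, 529 and 538 CPM in untreated scrambled-guide cells and at 440, 374 and 385 CPM at 50 µM. In Nur77-guide cells it stood at 555, 583 and 556 CPM without and 407, 453 and 445 CPM with LCA, again without overlap. Irf1 fell by 0.43 ± 0.07 (edgeR adjusted p = 5.40e-05) and by 0.38 ± 0.07 (0.000430), and both calls were kept under every setting tried. Of the 18 regulators, 0 were called higher and 2 lower with the scrambled guide and 1 higher and 2 lower with the Nur77 guide, with medians of -0.02 in both, against 8.58% and 6.35% of all genes called either way. Beside Irf1, Irf2 fell with the scrambled guide (-0.35 ± 0.11, adjusted p = 0.0458), and Creb1 fell (-0.37 ± 0.11) and Atf1 rose (0.42 ± 0.12) with the Nur77 guide. Irf2's call was lost without replicate 2 or 3 of either scrambled-guide group and under 6 further settings. Creb1's was lost without replicate 2 or 3 of either Nur77-guide group (-0.37 to -0.27), and Atf1's without untreated replicate 1 (0.37) or 2 (0.41) or treated replicate 1 (0.43) or 3 (0.29). Both were also lost in the compared groups alone, and Atf1's without scrambled-guide replicate 3 and Nur77-guide replicate 1 at 50 µM together. Among 7 genes of interferon gamma signalling, edgeR called 1 higher and 1 lower with the scrambled guide and 3 higher and 1 lower with the Nur77 guide. Of all genes, 8.58% and 6.35% were called either way. DESeq2 called 2 higher and 1 lower, and 3 higher and 1 lower. The ligand-binding receptor chain Ifngr1 fell by 0.78 ± 0.10 (3.97e-06) and 0.69 ± 0.09 (2.50e-05), and it also fell at 10 µM averaged over guides, by 0.32 ± 0.07 (0.00905), each under every setting tried. Ifngr1 stood at 731, 742 and 739 CPM without LCA and at 479, 380 and 430 CPM at 50 µM with the scrambled guide. The other receptor chain, Ifngr2, went the opposite way. With the Nur77 guide it stood at 53.5, 57.3 and 50.03 CPM without LCA and at 71.03, 69.3 and 72.8 CPM at 50 µM, and rose by 0.41 ± 0.11 (0.0169). That call was lost without untreated replicate 1 (0.40) or 3 (0.36), and without scrambled-guide replicate 3 and Nur77-guide replicate 1 at 50 µM together (0.41). Averaged over guides Ifngr2 rose by 0.32 ± 0.08 at 50 µM (0.00325), and averaged over doses it was higher with the Nur77 guide by 0.23 ± 0.06 (0.0202). That last call was lost without Nur77-guide replicate 2 at 0 µM or 1 at 10 µM, or scrambled-guide replicate 3 at 10 µM or 2 at 50 µM (0.21 to 0.22). Socs1, a feedback inhibitor of the pathway, rose by 0.40 ± 0.11 (0.0327) and 0.49 ± 0.11 (0.0119), calls that were lost when any of 4 libraries was left out in each case. These were scrambled-guide replicate 2 without LCA (0.26) and replicates 1 (0.36), 2 (0.40) and 3 (0.43) at 50 µM, and Nur77-guide replicates 2 (0.47) and 3 (0.43) without LCA and 1 (0.42) and 2 (0.40) at 50 µM.

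The interferon gamma transcript itself was scarce. Ifng stood at 3.92, 2.40 and 3.24 CPM in untreated scrambled-guide cells and at 11.6, 15.3 and 14.5 CPM at 50 µM, and at 0, 3.39 and 0.845 CPM and 20.99, 8.72 and 5.50 CPM in Nur77-guide cells. Treated libraries were above untreated ones with both guides. Ifng rose by 3.01 ± 0.74 with the Nur77 guide (edgeR adjusted p = 0.0246), a call lost without untreated replicate 3 (2.72, adjusted p = 0.118) and in the compared groups alone (0.147). It was also lost without scrambled-guide replicate 3 and Nur77-guide replicate 1 at 50 µM together (2.31, 0.0549). With the scrambled guide edgeR did not call Ifng, though its levels there did not overlap. DESeq2 called 2 genes of its list higher with that guide, where edgeR called 1, Socs1. Averaged over guides Ifng rose by 2.56 ± 0.49 at 50 µM (edgeR adjusted p = 0.00205), a call kept under every setting tried. At 10 µM averaged over guides, 2 of the 18 regulators were called higher, where 1.82% of all genes were called either way. Both are known from the type I interferon response. Stat2 rose by 0.35 ± 0.07 (0.00184), a call kept under every setting. At 50 µM averaged over guides Stat2 was called lower (-0.19 ± 0.07, 0.0433), a call lost when any of 8 of the libraries compared was left out and with background as a covariate. At 10 µM averaged over guides Irf9 rose by 0.30 ± 0.08 (0.0294), a call lost when any of 8 of the libraries compared was left out.

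**Figure D5:**
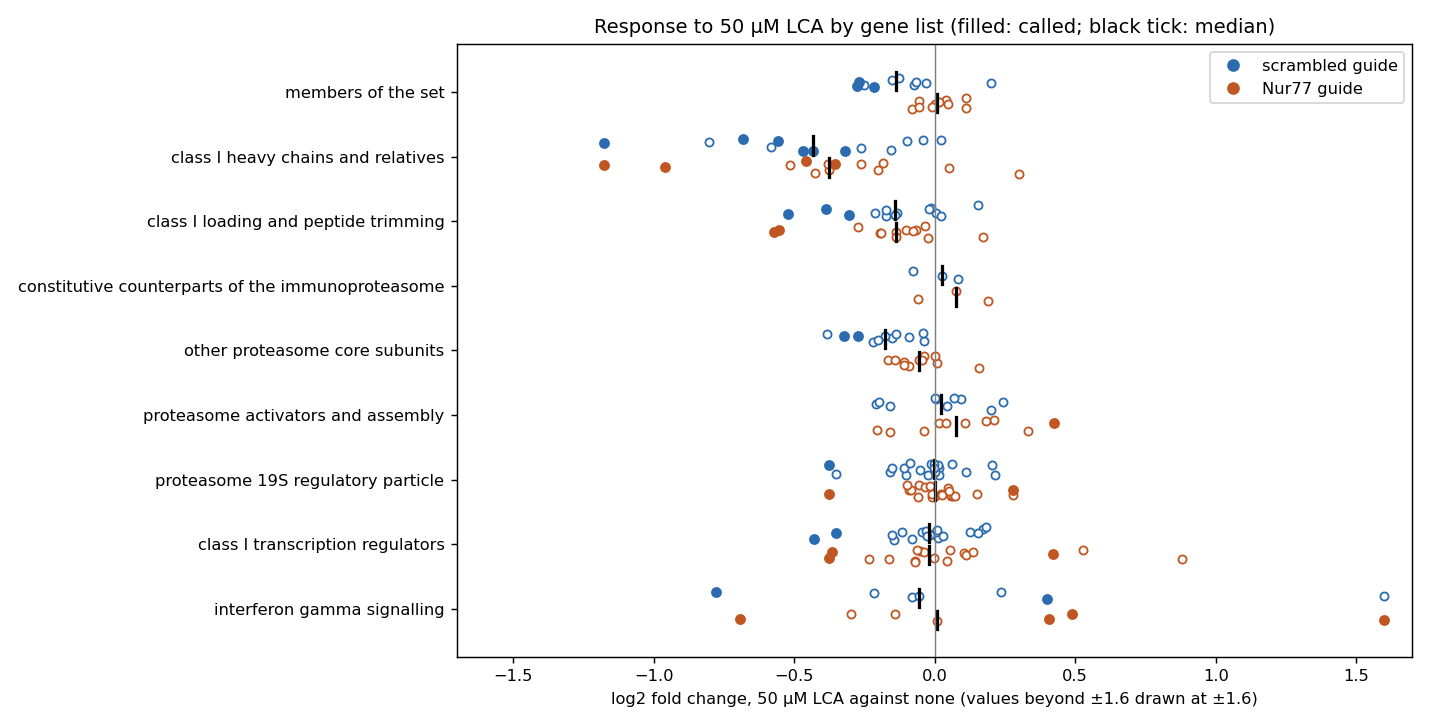
Log2 fold change at 50 µM LCA against none for each tested gene of 9 lists, with the scrambled guide (blue) and the Nur77 guide (orange); filled points were called and black ticks mark list medians. The heavy chain relatives centre on -0.43 and -0.38, whereas the members centre on -0.14 and 0.01.

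Over the 18 libraries, the genes outside the set that followed the members' mean standardised level most closely were Shisa5 (Pearson r = 0.86), Rnaseh2b (0.86), H2-L (0.85), Calm3 (0.84), Tspo (0.82), Fam96b (0.81), Stk11 (0.80), Cbx8 (0.80), Psme2b (0.80) and Cst3 (0.80). H2-L may share reads with H2-D1, and Psme2b is a copy of the immunoproteasome activator gene Psme2. Those most like Nlrc5 were Golim4 (0.95), Usp1 (0.86), Abca2 (0.85), Bcor (0.82) and 9330175E14Rik (0.82). These are correlations over libraries that share depth and the length trend, given without a test.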

How the data were processed

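RNA from 18 libraries was counted per gene. The deposited table holds raw counts, whole numbers with no normalization; STAR, HOMER and DESeq2 and the builds GRCm38 and mm10 are named, per the submitters' processing notes, with no versions, and strand and the handling of reads that fit several genes are not given in the sources used here. Genes were filtered with filterByExpr and scaled by TMM, and 1 model of 6 group means was fitted with robust quasi-likelihood in edgeR 4.0.16 (R 4.3.3). P-values were adjusted by Benjamini-Hochberg over 11651 genes within each of 12 contrasts and called under 0.05. The standard error was |log2 fold change| / sqrt(F). CPM use TMM-scaled library sizes. Coordinates and lengths come from GENCODE M21 and promoter sequences from RefSeq. Members and gene lists were chosen with earlier results of these data known. Named genes were the members, Nr4a1, up to 3 called genes of each list per contrast and direction by smallest p (the 2 most abundant of a list with no call), and the genes most like the members (10) and Nlrc5 (5). Of the called genes under that rule, Ganab (-0.18), Pomp (-0.18), Jak2 (-0.26) and Adrm1 (0.25) are not described above. Those values are for 50 µM averaged over guides. Alternatives were DESeq2 1.42.0, its size factors, no filter, compared groups alone, CPM on library totals, a replicate block, 2 libraries left out together, and each library left out. Covariates of background and of length trend, and exon-union lengths, were chosen after seeing the data. The code was tested on simulated data.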

Additional observations from a re-analysis of the deposited data

How the results depend on the processing

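B2m in scrambled-guide cells at 50 µM was called in each of 14 alternatives. Of 2030 recomputed member differences 22 lost and 25 gained a call and 0 reversed (161 uncalled ones changed sign, taken as having no direction), and 0 of 60 levels moved on plain library totals. Of 73 list gene calls 36 were kept in every alternative. In the order given, counts of called genes that moved by over 1.5 times were as follows; the cause was not tested. Without a filter, all genes came to 104 (scrambled guide, 10 µM), 103 (Nur77 guide, 10 µM), 141, 142 and 357 (between guides at 0, 10 and 50 µM) and 3 and 3 (difference of responses, 50 and 10 µM), and members to 2 (between guides, 50 µM) and 3 (averaged 50 µM). In the compared groups alone, all genes came to 136, 123, 372 (Nur77 guide, 50 µM), 211, 128, 52, 380 (averaged 10 µM) and 1 (difference, 10 µM), members to 0 and 2, and heavy chain relatives with the Nur77 guide to 2. Without the 2 libraries of highest background, all genes came to 113, 98, 428, 152, 158 and 350, members to 1 (scrambled guide, 50 µM), 0 and 0, and loading genes averaged to 5. With background as a covariate, all genes came to 339 (scrambled guide, 50 µM), 79, 123 and 5, members to 1 and 0, relatives to 2 and loading genes to 1 and 5. With the length trend, all genes came to 83, 78, 111, 130 and 339, members to 1 (scrambled guide, 50 µM), 1 (averaged 10 µM), 1 (between guides, averaged) and 4 (averaged 50 µM), relatives to 3 and 7 and loading genes to 4. DESeq2 gave 62 genes (Nur77 guide, 10 µM), 1 (difference, 50 µM), 2 members (averaged 50 µM) and 5 and 5 loading genes. Leaving out 1 library gave 522 to 1027 (scrambled guide, 50 µM), 4 to 57 (scrambled guide, 10 µM), 384 to 814 and 6 to 45 (Nur77 guide, 50 and 10 µM), 28 to 53, 43 to 62 and 106 to 370 (between guides), 106 to 201 (averaged 10 µM) and 0 to 6 (difference, 50 µM) genes. It gave 1 to 5 (scrambled guide, 50 µM), 0 to 1 (between guides, 50 µM and averaged) and 0 to 4 (averaged 50 µM) members, 3 to 7 relatives and 0 to 3 loading genes (scrambled guide, 50 µM).

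Titles number replicates alike across groups, but same-numbered libraries did not deviate together (median correlation 0.0067, over 0.1 in 7 of 45 pairs). With a replicate block, 930 and 684 genes and 3 and 0 members were called at 50 µM (scrambled, Nur77 guide), and B2m was at -0.27 ± 0.06 (edgeR adjusted p = 0.00272). Of list genes, Irf2 lost its call under the block (-0.35, 0.0588).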
